A study of Zea mays with 10 samples.

Results

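The maize genes elfa2 (LOC100037748) and EF1A (LOC542581) encode translation elongation factor 1-alpha. They were followed on 10 arrays that set leaf RNA from weedy plots against leaf RNA from control plots. Their 49 array elements are those that the platform annotation gives to exactly 1 gene and to one of these symbols, 25 for elfa2 and 24 for EF1A, among 1800 elements with 1 gene name and 19200 elements in all. The members were chosen by their weedy against control ratios in these same arrays: element_6037 of elfa2 stood among the named elements of smallest p, and EF1A had the smallest p of a group of translation factors. Those values are therefore given as a description without a test. The choice had no threshold on size, so no members lie just inside or outside one.

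Elongation factor 1-alpha is a GTP-binding protein that brings aminoacyl-tRNAs to the ribosome during protein synthesis. It is one of the most abundant proteins of plant cells, it also binds the actin cytoskeleton, and its transcripts are often used as a reference in expression measurements. In maize it is encoded by a family of closely similar genes, so an array element made from one copy may also bind transcripts of another, which was not tested here.

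Maize (Zea mays; the labels name no genotype) was grown in the field without added water or fertilizer in 8 plots, 4 of them sown with velvetleaf, a broadleaf weed, and 4 weeded by hand through the season. Leaf material of 4 plants was pooled per plot, so that each plot gave 1 pool. Every array carried 1 weedy and 1 control pool, one labelled Cy5 and the other Cy3. On arrays W1 to W5 the weedy pool was in Cy5, and on arrays C1 to C5 the control pool was in Cy5. In order, W1 to W5 paired weedy plots 2, 3, 4, 1 and 4 with control plots 1, 2, 3, 4 and 4. Arrays C1 to C5 paired weedy plots 1, 1, 2, 3 and 3 with control plots 2, 3, 4, 1 and 4.

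The deposited value is 1 log ratio per element and array, treated as log2 and centred here on the median of its array. The numerator of the ratio is not stated. A turned ratio has its sign changed on C1 to C5, and a positive one stands for more transcript in weedy leaf provided that Cy5 is the numerator, and for less where Cy3 is. Should the submitters have put weedy over control on every array, elfa2 would stand at -0.20 and EF1A at -0.14 for weedy against control, so the direction is not settled. The array medians before centring lay between -0.04 and 0.06. Between 9965 and 17383 elements had a value per array, with C5 lowest and W3 next at 13747. Of 9 leaf genes listed as markers 6 had elements, all 6 with values, but a ratio gives no level and the tissue label could not be checked further. In pooled leaf, fewer cells of a type and less RNA per cell cannot be told apart.

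Both elongation factor genes had mean centred ratios near 0 with weedy RNA in Cy5 and below 0 with control RNA in Cy5. The mean of the elfa2 elements was -0.16 on W1, -0.02 on W2, 0.05 on W3, 0.32 on W4 and -0.20 on W5. On the arrays with control RNA in Cy5 it was -0.26 on C1, -0.28 on C2, -0.07 on C3, -0.41 on C4 and -0.96 on C5. Array C5 was low and W4 high, and the orientations overlapped, because W1 and W5 lay below C3. The means were -0.00092 ± 0.21 (SD, n = 5 arrays) and -0.40 ± 0.34 (SD, n = 5 arrays).

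For EF1A the mean over elements was -0.20 on W1, 0.08 on W2, 0.09 on W3, 0.18 on W4 and -0.18 on W5. It was -0.23 on C1, -0.34 on C2, -0.16 on C3, -0.30 on C4 and -0.35 on C5. By this mean the 5 arrays with control RNA in Cy5 lay close together and were all below 0. W1 and W5 again lay below C3, so that the orientations overlapped. By the median over elements C5 stood apart, at -0.09 against -0.33 to -0.21 on C1 to C4. On C5, 9 of the 18 EF1A elements with a value were negative. The means were -0.0075 ± 0.17 (SD, n = 5 arrays) with weedy RNA in Cy5 and -0.27 ± 0.08 (SD, n = 5 arrays) with control RNA in Cy5. W4 was the highest array and W1 and W5 the lowest with weedy RNA in Cy5 for both genes.

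**Figure D1:**
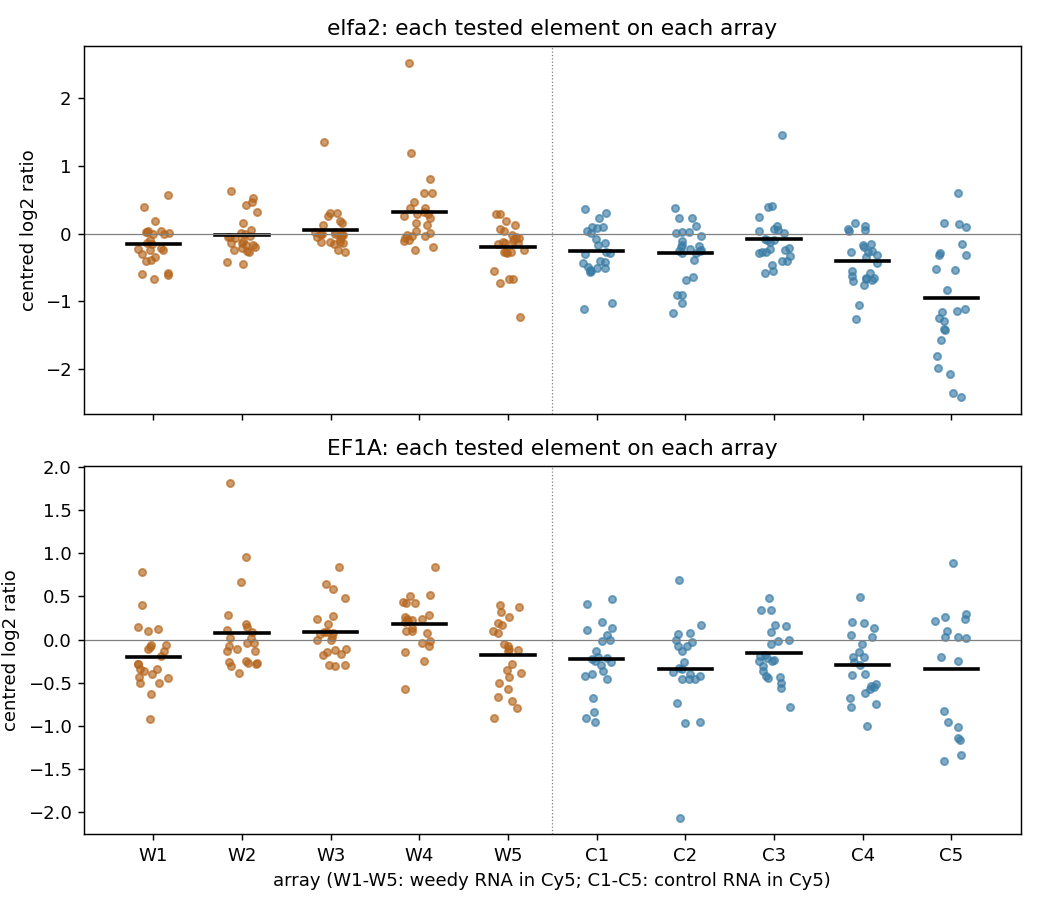
Centred log2 ratio (vertical axis) of each tested element of elfa2 (upper panel) and EF1A (lower panel) on each of the 10 arrays; points are elements, black bars their mean. The elfa2 mean drops to -0.96 on C5, where EF1A is at -0.35.

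The turned ratio of elfa2 was 0.19 (SE 0.09) and that of EF1A 0.13 (SE 0.06), with the mean over elements as 1 value per gene and array. The gene value, turned, was positive on 7 of 10 arrays for elfa2 and on 8 of 10 for EF1A. The median over all 540 genes tested was 0.02. In the fit over all elements 2 of 16201 (0.0123%) passed an adjusted p of 0.05 for weedy against control, with limma and Benjamini-Hochberg adjustment, and neither was an element of these genes. Of the genes 0 of 540 (0%) passed, and 64 (11.9%) had an unadjusted p under 0.05, as did 12.1% of all elements.

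Single arrays and plots weighed on elfa2. Without C5 the elfa2 value was 0.13, beside 0.12 for EF1A. Without weedy plot 3, which was hybridised on W2, C4 and C5, elfa2 was at 0.09 and EF1A at 0.09. The value of elfa2 ranged from 0.09 to 0.26 when 1 array or 1 plot was left out, and that of EF1A from 0.09 to 0.17. With the sign changed on C3 and C5, the arrays of control plot 4 in Cy5, elfa2 was at 0.0026 and EF1A at 0.04.

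Pools were hybridised on 2 to 4 arrays, and 5 pairs of arrays share a pool in the same dye. They were close for elfa2 in one pair and further apart in the others. Arrays C1 and C2 share weedy plot 1 in Cy3 and stood at -0.26 and -0.28. Arrays C3 and C5 share control plot 4 in Cy5 and stood at -0.07 and -0.96. Arrays C4 and C5 share weedy plot 3 in Cy3 and stood at -0.41 and -0.96. With weedy RNA in Cy5, W3 and W5 share weedy plot 4 and stood at 0.05 and -0.20, and W4 and W5 share control plot 4 and stood at 0.32 and -0.20.

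In a fit of all 10 arrays, read as Cy5 over Cy3, with 1 value per plot, set to sum to 0 over the 8 plots, elfa2 was at 0.17, -0.16, 0.38 and -0.15 in weedy plots 1 to 4. It was at -0.01, 0.15, -0.16 and -0.23 in control plots 1 to 4.

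On that reading weedy plot 3 was highest for elfa2, weedy plot 1 followed, and weedy plots 2 and 4 lay among the control plots, and with Cy3 as numerator every sign and the order are reversed. EF1A stood at 0.14, -0.04, 0.20 and -0.09 in weedy plots 1 to 4 and at 0.03, 0.02, -0.19 and -0.07 in control plots 1 to 4. On that reading weedy 3 and weedy 1 were at its top as well, and the weedy and control plots overlapped for both genes.

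With weedy over control taken as deposited on every array, the order of the plots was another one. Weedy plots 1 to 4 were then at 0.07, 0.03, -0.28 and -0.20 for elfa2 and control plots 1 to 4 at 0.16, 0.03, 0.05 and 0.14. EF1A stood at -0.04, -0.05, -0.04 and -0.17 in weedy plots 1 to 4 and at 0.20, 0.03, 0.02 and 0.05 in control plots 1 to 4. Weedy plot 3 was highest for elfa2 on the first reading and lowest here. On the first reading, with 1 value per plot, the difference of weedy minus control was 0.12 (SE 0.15) for elfa2 and 0.11 (SE 0.11) for EF1A. Both are smaller than their standard error or close to it.

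**Figure D2:**
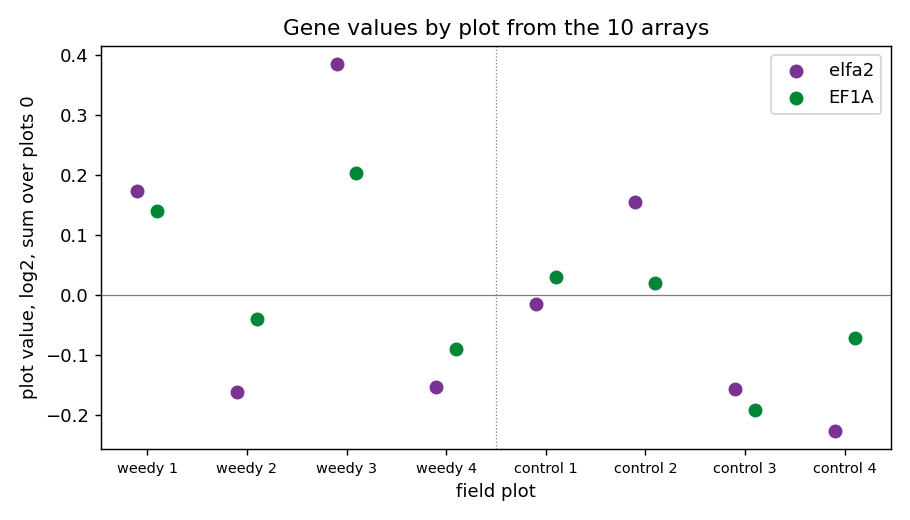
Gene value of elfa2 and EF1A (log2, vertical axis, summing to 0 over plots) in each of the 8 plots, fitted from the 10 arrays with a dye term and read as Cy5 over Cy3; each point is 1 plot. Weedy plots 1 and 3 stand highest for EF1A, weedy plots 2 and 4 lie within the range of the control plots for both genes.

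Elements of one gene differed among themselves about as much as the gene differed from 0. Of 25 elfa2 elements, 25 could be tested, with turned ratios from -0.14 to 0.63 and a median of 0.23, 19 of them positive. Of 24 EF1A elements, 23 could be tested, from -0.35 to 0.43 with a median of 0.16, 18 of them positive. Element_4473, the EF1A element left out, had no value on any array. Over all 16201 elements the median was 0.01 and 53.6% were positive. The elements of a gene share its transcripts, the arrays and the pools, so they are not replicates of the weedy or control condition.

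Element_6037 had the highest turned ratio of elfa2, 0.63 (SE 0.13). Its centred values were -0.25, 0.43, 0.15, 0.29 and -0.15 on W1 to W5 and -1.03, -0.91, -0.58, -1.26 and -2.08 on C1 to C5. The orientations did not overlap for this element, and C5 was the lowest array.

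Element_3334 followed, at 0.44 (SE 0.17), with values of -0.62, 0.62, 0.19, 0.81 and -0.02 on W1 to W5 and -0.57, -0.29, -0.21, -0.67 and -1.82 on C1 to C5. Here W1 lay among the arrays with control RNA in Cy5. Element_3670 was at 0.42 (SE 0.15), with 0.03, 0.31, -0.0041, 0.60 and -0.15 on W1 to W5 and 0.0040, -1.18, -0.10, -0.66 and -1.57 on C1 to C5. C2, C4 and C5 lay below every array with weedy RNA in Cy5, and C1 and C3 lay among those arrays.

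At the other end of elfa2, element_100 had a turned ratio of -0.14 (SE 0.11). Its values were -0.66, -0.27, 0.30, -0.11 and -0.11 on W1 to W5 and 0.09, -0.25, 0.07, 0.06 and 0.60 on C1 to C5, so that C5 was its highest array. Element_3328 was also at -0.14 (SE 0.11), with -1.23 on W5 as its lowest value, and element_6929 at -0.08 (SE 0.09), without a value on C5. Element_3328 and element_3334 lie close together in the table and had turned ratios of opposite sign.

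In EF1A, element_6495 was highest at 0.43 (SE 0.11), with -0.07, 0.11, -0.11, 0.43 and 0.26 on W1 to W5 and -0.84, -0.26, -0.43, -0.79 and -1.41 on C1 to C5. All of its arrays with control RNA in Cy5 lay below those with weedy RNA in Cy5. Element_2751 was lowest at -0.35 (SE 0.12), with -0.29, -0.39, -0.58 and -0.67 on W1, W2, W4 and W5 and -0.01, -0.0030, 0.03 and 0.89 on C1, C3, C4 and C5. It had no value on W3 and C2, and its orientations were apart in the opposite sense.

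The other EF1A elements lay between. Turned ratios above 0.2 were found for element_2816 at 0.38, element_3247 at 0.37, element_4152 at 0.29, element_9321 at 0.27, element_8846 at 0.24 and element_6123 at 0.24. A middle group comprised element_11243 at 0.19, element_8454 at 0.17, element_10989 at 0.17, element_10539 at 0.16, element_3796 at 0.16, element_6378 at 0.15, element_440 at 0.13 and element_12168 at 0.11. Close to 0 were element_12597 at 0.06, element_9775 at 0.05, element_5293 at 0.0077, element_2888 at -0.0039 and element_1298 at -0.03. Element_5974 at -0.11 and element_8701 at -0.17 were negative beside element_2751.

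**Figure D3:**
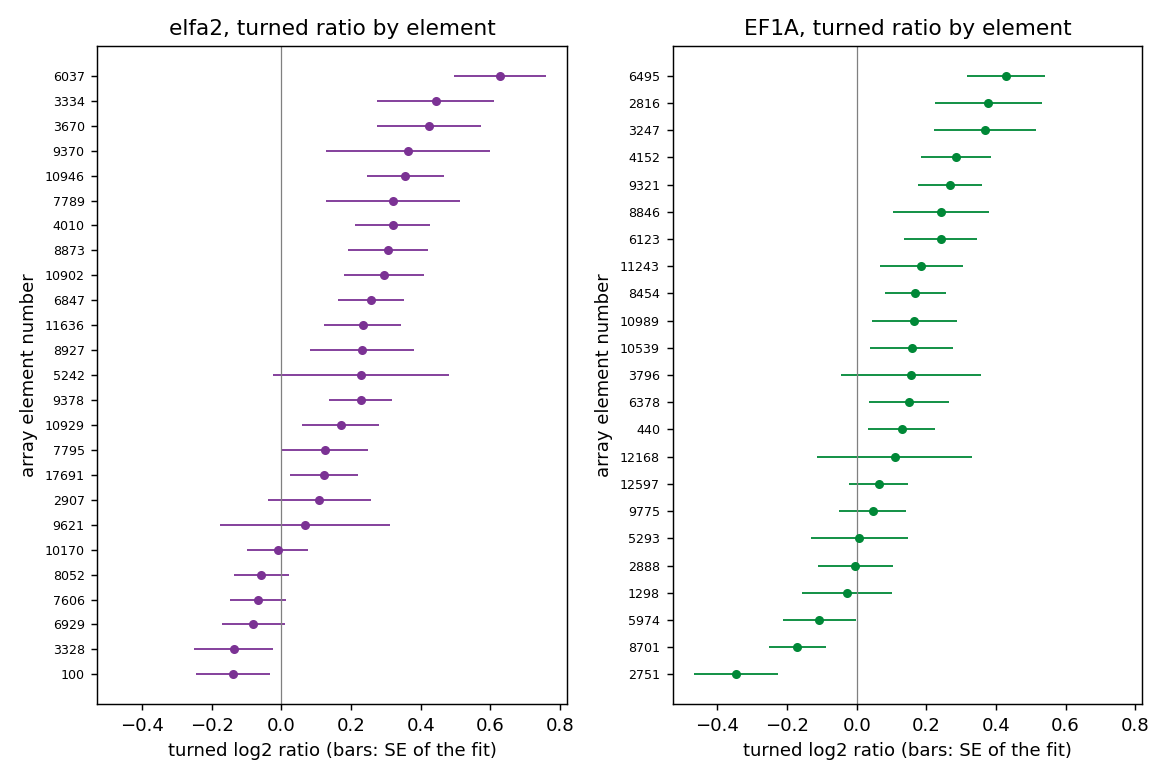
Turned log2 ratio (horizontal axis) of the 25 tested elfa2 elements (left) and the 23 tested EF1A elements (right), ordered by value; bars are the standard error of the fit. Values run from -0.14 to 0.63 for elfa2 and from -0.35 to 0.43 for EF1A.

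The values of the dye orientations did not overlap for 4 of 25 elfa2 elements and 2 of 23 EF1A elements, against 4.93% of all elements tested. Beside element_6037 the elfa2 elements were element_4010 at 0.32, element_10946 at 0.36 and element_11636 at 0.23, which were named after their values had been seen. For EF1A they were element_6495 and element_2751, which had opposite signs. This count rests on the contrast by which the genes were chosen, and nothing is read from it.

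On array C5, which had the fewest values, many elfa2 elements were far below 0. There 13 of the 24 elfa2 elements with a value lay below -1, against 5 of 18 for EF1A and 4.71% of all elements with a value. On the other arrays between 0 and 2 elfa2 elements lay below -1. C5 also had the widest spread of all elements, with an SD of 0.59 against 0.31 to 0.48 on the other arrays. The SD over elfa2 elements was 0.85 on C5, 0.57 on W4 and between 0.29 and 0.41 on the remaining arrays, and that over EF1A elements was 0.69 on C5 and between 0.29 and 0.53 elsewhere.

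Elements of elfa2 had values more often than the table as a whole. All 25 had a value on 9 arrays and 24 did on C5, where 51.9% of all elements had one. Of the EF1A elements 23 had a value on 7 arrays, 22 on W3 and C2, and 18, or 75.0%, on C5. Over all elements, the share was 71.6% on W3 and between 84.5% and 90.5% on the other arrays apart from C5. The table gives no spot intensity, so how bright these spots were is not known.

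**Figure D4:**
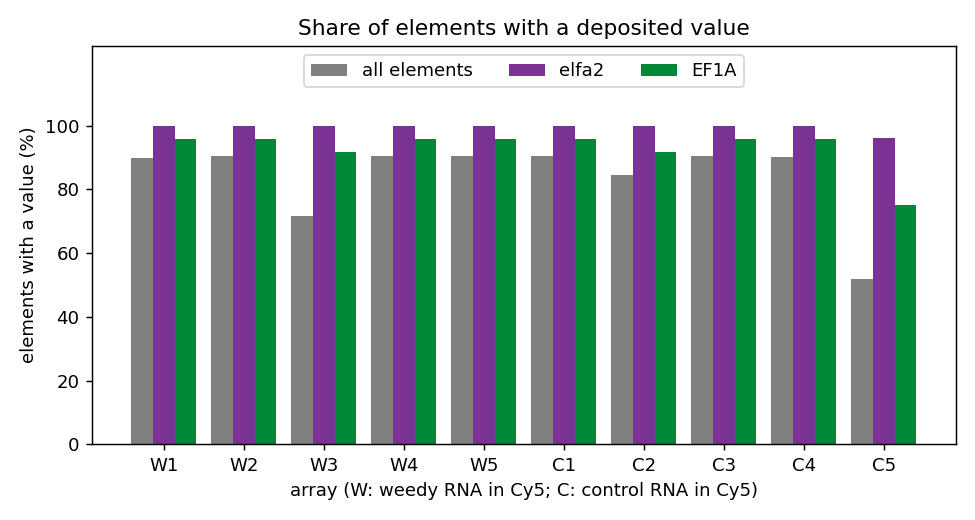
Percentage of elements with a deposited value (vertical axis, from 0) on each array, for all 19200 elements, the 25 of elfa2 and the 24 of EF1A. On C5 the shares are 51.9%, 96% and 75.0%.

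The elements of elfa2 followed each other across arrays, and those of EF1A did so less. To leave out the dye and the treatment, the mean of each dye orientation was subtracted, and each element was set against the mean of the other elements of its gene over 10 arrays, which share pools. The median Pearson r was 0.74 for the 25 elfa2 elements, with a range from -0.34 to 0.94, and 21 were above 0. For the 23 EF1A elements it was 0.16, with a range from -0.55 to 0.72, and 18 were above 0. Over the 80 genes with at least 5 tested elements the median was 0.22, and elfa2 ranked at 3 and EF1A at 52. The values of the 80 genes and these ranks include C5. In genes with fewer elements each element is set against a mean of fewer others. The difference between the genes was not tested.

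Array C5 moved the value of both genes, in opposite senses. Without it the median r was lower for elfa2, at 0.47, and higher for EF1A, at 0.29, over 9 arrays. With the medians of blocks of 400 successive elements removed, it was 0.72 for elfa2 and 0.29 for EF1A. The gene grp1 (LOC542725), named after its values had been seen, had the most tested elements of the 80 genes, 28, and a median of 0.59. Of the genes with fewer elements than the elongation factor genes, RPP2A (LOC542323), an acidic ribosomal protein, had 20 tested elements and a median of 0.41. The histone gene his2b5 (LOC542301) had 18 and a median of 0.21, and Sod4A, a superoxide dismutase, had 18 and a median of -0.12.

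**Figure D5:**
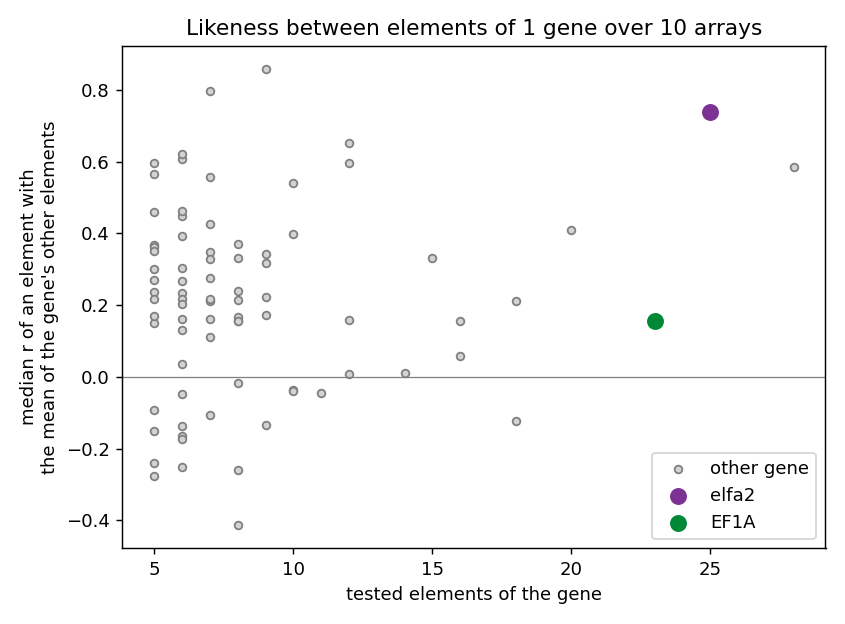
Median Pearson r between an element and the mean of the other elements of its gene (vertical axis) against the number of tested elements (horizontal axis), for 80 genes with at least 5 tested elements. The elfa2 gene lies at 0.74 with 25 elements and EF1A at 0.16 with 23.

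In size of spread both genes lay above the median of the 80 genes. Counted from the widest, elfa2 ranked at 14 and EF1A at 22 by the SD of the turned ratios. The SD of the turned ratios over elements was 0.20 for elfa2 and 0.18 for EF1A, against a median of 0.15 over the 80 genes and 0.17 over all tested elements. It was 0.16 for RPP2A, 0.15 for his2b5 and 0.23 for Sod4A. The median over arrays of the SD over elements was 0.37 for elfa2 and 0.38 for EF1A, against a median of 0.33 over the 80 genes. By this measure elfa2 ranked at 23 and EF1A at 21. The SD of the turned ratios was thus slightly larger for both genes than over all tested elements, which include those of these genes. As the genes were chosen on turned ratios, nothing further is read from this.

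The dye term, the mean of both orientations, was -0.20 (SE 0.08) for elfa2 and -0.14 (SE 0.06) for EF1A. For elfa2 it ranged from -0.07 without weedy plot 3 to -0.28 without weedy plot 1 when 1 array or plot was left out, and it was -0.12 without C5. For EF1A it ranged from -0.16 to -0.11, with -0.13 without C5. In limma 0% of all elements and 0% of the 540 genes passed in this term, and 9.49% and 10% had an unadjusted p under 0.05. For the elongation factor genes it is given as a description, because it draws on the same low ratios by which they were chosen. Where weedy over control was deposited for every array, the dye and treatment terms trade places.

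Across the dye orientations, 20 of 25 elfa2 elements and 19 of 23 EF1A elements had a negative dye term, against 49.3% of all elements, which is likewise a description. The elfa2 elements ranged from -0.53, at element_6037, to 0.13, with a median of -0.24. The EF1A elements ranged from -0.33 to 0.18, with a median of -0.17. The treatment and dye terms of each gene were similar in size and opposite in sign, as the ratios lay below the array median with control RNA in Cy5 and near it with weedy RNA in Cy5.

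Other elongation factor 1-alpha genes were also on the array. The gene elfa3 (LOC542620), with 9 tested elements, had a turned ratio of 0.12 (SE 0.08) and a dye term of -0.14 (SE 0.07). The single element of elfa5 (LOC542555) stood at 0.19 (SE 0.18) with a dye term of 0.35 (SE 0.16). Neither passed in either term in limma. A further 4 elements were annotated to elfa2 together with elfa3 or elfa5 and were left out of the 25: element_2198 at 0.06, element_7764 at 0.03, element_8505 at -0.0029 and element_9399 at 0.15.

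Of 10 other genes for elongation and initiation factors, 7 had a positive turned ratio and 3 a negative one, with a median of 0.07 against 0.02 over all 540 genes. None passed in either direction in limma, and 0 had an unadjusted p under 0.05, against 11.9% of all genes. EF1A was chosen as the translation factor of smallest p, so nothing is read from this absence. Those with most elements were tif5A (LOC542601), for an initiation factor of the 5A type, at 0.07 (SE 0.05), elfa3, given above, tif1 (LOC541664) at 0.06 (SE 0.06), and eif5a (LOC542537) at 0.08 (SE 0.07). The range was from -0.19 for eIF3A (LOC542747), a subunit of the initiation factor that binds the small ribosomal subunit, to 0.19 for elfa5.

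Ribosomal protein genes, which encode the machine that elongation factor 1-alpha serves, had a median of 0.01 over 13 genes, with 8 positive and 5 negative. The list took symbols and synonyms that start with rpl or rps and a digit, which brought in RPP2A through its synonym rpl12. None passed in limma, and 0 had an unadjusted p under 0.05, against 11.9% of all genes. RPP2A was at 0.03 (SE 0.06), rpl17 (LOC541667) at -0.05 (SE 0.07), RPL27A at -0.05 (SE 0.06) and RPL19 (LOC542284) at -0.04 (SE 0.08). Other genes of the acidic ribosomal stalk, outside that rule and named after their values had been seen, were RP-P0 (LOC542454) at 0.03, rpp3 (LOC542339) at -0.16, rpp2b (LOC542340) at 0.14 and rpp1a (LOC542719) at -0.0071, and none of these passed. In the dye term 2 of the 13 were positive and 11 negative with a median of -0.02, and in the initiation and elongation factors 4 were positive and 6 negative with a median of -0.03, against 286 negative of all 540 genes with a median of -0.0081. None passed there either, and 0 of both lists had an unadjusted p under 0.05, against 10% of all genes.

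By deviations from the mean of each dye orientation over 10 arrays, elfa2 and EF1A correlated at r = 0.68. With C5 dropped only after this subtraction, so that the means still included C5, r was 0.83. The other values with C5 dropped in this and the next paragraph were obtained in the same way. They differ in this from the values for elements, where the means were taken again without C5. Of 393 other genes with a value on all arrays, EF1A ranked at 24 for elfa2, and elfa2 ranked at 11 for EF1A. The 4 genes most like elfa2 were trxh2 (LOC606487), a thioredoxin, at 0.88, GAPC1 (LOC542367), a dehydrogenase of glycolysis, at 0.86, the ascorbate peroxidase apx2 (LOC542476) at 0.84 and mek1 (LOC542356) at 0.84. With C5 dropped after the subtraction these were at 0.72, 0.64, 0.59 and 0.59.

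The 4 genes most like EF1A were RPL27A at 0.76, the alpha-tubulin TUA1 (LOC100037751) at 0.75, LOC541617 at 0.73 and the enolase eno1 (LOC732811) at 0.72. With C5 dropped after the subtraction they were at 0.78, 0.75, 0.74 and 0.78. Of these top genes, which were ranked with C5 included, those of elfa2 had a lower r with C5 dropped in this way. Those of EF1A moved by at most 0.06. As the subtracted means still included C5, these changes are not those of leaving C5 out altogether, which was not computed for gene values. The ribosomal protein gene RPL19, named here after its values had been seen, went the other way, from -0.11 to 0.62 with elfa2 and from 0.56 to 0.85 with EF1A, as did the r of elfa2 with EF1A. The gene elfa3 stood at 0.63 with elfa2 and 0.38 with EF1A. All arrays share pools with others, so these values of r describe the 10 arrays and carry no test.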

How the data were processed

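Each of the 10 two-colour arrays compared leaf RNA of a weedy and a control pool. RNA was labelled with an Alexa Fluor kit, per the labels' protocols, and the labels name the dyes Cy5 and Cy3. The deposited values are log ratios treated as log2; for their base, numerator, normalization, background correction and any filter the sources used here give nothing, and base 2 cannot be told from the natural base. No depth exists for arrays, and the number of arrays limits the precision.

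Each array was centred on its median. Elements measured on 4 or more arrays per dye orientation, 16201 in all, were fitted by generalised least squares with terms for treatment, a dye intercept and the 8 plots as a random effect with 1 ratio of plot to array variance, 0.0347, estimated by restricted likelihood. The moderated test is that of limma 3.58.1 (eBayes; R 4.3.3), with Benjamini-Hochberg adjusted p-values and a threshold of 0.05. Elements of a gene were averaged per array for 540 genes, without MNB1b, whose symbol stood on 230 elements. Genes were named through the platform annotation, with synonyms from a RefSeq table used for names only. The fit was tested on simulated data.

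The members and lists were chosen with earlier results of these data known. The elements named are element_6037, the 3 highest and 3 lowest of elfa2, all of EF1A, up to 4 genes per list by number of elements, the 4 genes most like each member, and for the spread over elements the 3 other genes with most elements after elfa2. Alternatives covered centring, scale, plots, dye, missing values, moderation, weights, reading of the ratio, position, and each array or plot left out.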

Additional observations from a re-analysis of the deposited data

Results flagged for a closer look

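Of 72 checks of 1 measure within 1 dye orientation, 11 found an array far from the other arrays. How many would arise by chance is not known. The checks share arrays, and some of the counts were equal on all other arrays of the orientation. With control RNA in Cy5, array C5 stood apart for element_3334 at -1.82 and element_9321 at -1.01, both low, and for element_2751 at 0.89, which was high. Array W3 stood apart for element_8454 at -0.30. Array C5 had 9965 elements with a value and W3 had 13747, each far below the rest of its orientation. The numbers of member elements with a value stood apart in the same arrays, at 24 for elfa2 on C5, 18 for EF1A on C5 and 22 for EF1A on W3. The SD over elfa2 elements stood apart at 0.57 on W4 and at 0.85 on C5. The part of the missing values in these results was not tested.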

How the results depend on the processing

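The log base, the direction of the ratios and the brightness of the spots are unknown, and 10 arrays of 8 pools limit the precision. With the values read as already turned before deposit, weedy against control was -0.20 for elfa2, -0.14 for EF1A and -0.54 for element_6037, 5 elfa2 elements were positive in place of 19, the dye terms were 0.20 and 0.13, and 0 elements passed for weedy against control and 3 for the dye term. With the sign changed on C3 and C5, the dye term of elfa2 was 0.013, 12 elfa2 elements were positive and 0 elements passed. The 2 elements passing for weedy against control, neither of them a member, became 1 when arrays were scaled to 1 spread, 0 with 1 value per plot, 1 with a replicate block by plot number, 8 with array weights, and 0 to 4 with an array or plot left out; for the dye term 0 to 2 passed then. The cause was not tested. With this replicate block elfa2 was at 0.16 and EF1A at 0.12. Correlations of same-numbered weedy and control plots were -0.50, 0.13, -0.54 and 0.14, and in 0 of 4 cases was the same number the best match. So few plots cannot show whether those of the same number share more than the number. In the other alternatives run, elfa2 and EF1A kept a positive turned ratio. With the median over elements, elfa2 was at 0.19 and EF1A at 0.10.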

Other observations

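The elfa2 elements that were far below 0 on C5 were also lower on the other arrays with control RNA in Cy5. The 13 elements below -1 on C5 had means of -0.38, -0.36, -0.11 and -0.55 on C1 to C4, and the 11 others with a value there had -0.18, -0.23, -0.06 and -0.29. On W1 to W5 the means were -0.08, 0.01, 0.0073, 0.39 and -0.25 for the 13 elements and -0.24, -0.03, 0.08, 0.26 and -0.19 for the 11 others, higher on W1, W2 and W4 and lower on W3 and W5. For EF1A, the 5 elements below -1 on C5 had means of -0.43, -0.35, -0.39 and -0.29 on C1 to C4, against -0.24, -0.26, -0.02 and -0.30 for the 13 others. These groups were formed from the values on C5 and were not tested.

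Many elements did not sort by the gene to which they are annotated, and their number depended on the setting. Over 10 arrays the median r of elfa2 elements was 0.74 with their own gene and 0.36 with EF1A. For EF1A elements it was 0.16 with their own gene and 0.20 with elfa2. Without C5 the medians were 0.47 with their own gene and 0.44 with EF1A for elfa2 elements. For EF1A elements they were then 0.29 with their own gene and 0.43 with elfa2. With block medians removed, over 10 arrays, they were 0.72 and 0.55 for elfa2 elements and 0.29 and 0.34 for EF1A elements, in the same order. Over 10 arrays, 8 of 25 elfa2 elements had a higher r with the EF1A mean than with the other elfa2 elements, and 12 of 23 EF1A elements had a higher r with the elfa2 mean than with the other EF1A elements. Without C5 these numbers were 14 of 25 and 14 of 23. With block medians removed, over 10 arrays, they were 6 of 25 and 16 of 23. The 25 elfa2 elements were annotated through 43 sequence accessions and the 24 EF1A elements through 37, none of which stood on more than 1 element of its gene.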
